A study of Homo sapiens with 12 samples.

Results

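The 10 genes described here have been published as targets of the microRNA miR-34a, and their messengers were read in HuH-7 cells under SLMP53-2. They are the receptors MET, AXL, NOTCH1 and NOTCH2, the Notch ligand JAG1, the deacetylases SIRT1 and HDAC1, the cell cycle kinases CDK4 and CDK6 and the transcription factor SNAI1. The genes were chosen by name, as every gene probe that the array's design assigns to 1 of these 10 gene names, out of 29123 gene names on the array. The 10 genes have 13 probes among 41000, 3 for MET, 2 for CDK6 and 1 for each of the others, and all 13 passed the filter on dim probes, which 33467 probes passed. At 42 µM JAG1 was the lone gene of the 10 that passed the limits for a differentially expressed gene (DEG), with a signal 0.62 lower than under DMSO on the log2 scale. CDK4 was 0.58 higher, under the limit of 0.6 on the size of a change, and the probes of MET were 0.24 to 0.50 higher without passing the test.

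A microRNA of the miR-34 family is a short RNA that guides an Argonaute protein to messenger RNAs, usually through pairing between its seed and a complementary stretch in the 3′ untranslated region, after which the messenger is translated less and is often degraded. The gene of miR-34a is a transcriptional target of p53, and forced expression of miR-34a has been reported to lower many proteins of cell cycle entry, growth factor signalling, Notch signalling and epithelial plasticity. A lowered protein does not always come with a lowered messenger, and the arrays read the messenger alone.

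HuH-7 is a hepatocellular carcinoma line, labelled as carrying the p53 mutation Y220C, and SLMP53-2 is a small molecule studied as a reactivator of mutant p53. Cells of this 1 line were kept for 24 h with the solvent DMSO, with 28 µM SLMP53-2 (2 times its IC50) or with 42 µM SLMP53-2 (3 times its IC50), and each group holds 4 arrays with 1 colour, on 5 slides in all. The higher dose is given as 42 µM in one part of the labels and as 48 µM in another, and it is called 42 µM here. The study's methods call the 4 arrays of a group biological replicates. A normalized signal is the log2 of a spot's brightness after background correction and quantile normalization, a difference of 1 is 2-fold, and a probe counts as called when its adjusted p is below 0.05 and its log2 difference is at least 0.6 either way. The signal reads the share of a messenger in the labelled RNA, so that less RNA per cell and fewer cells cannot be seen. From 65.0% to 85.0% of gene spots were well above background on an array. The 11 hepatocyte and HuH-7 markers had mean signals from 6.68 (HNF4A) to 16.1 (ALB), with 13.3 for AFP. Of 14 markers of leukocytes, fibroblasts and endothelium PTPRC was well above background on 0 of 12 arrays and COL1A1 on 6, and the others on 10 to 12, with mean signals from 6.26 to 10.11 (COL1A2).

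The seed of miR-34a is shown here because 2 array probes of MET hold its complement. The seed is shared by hsa-miR-34c-5p, hsa-miR-449a and hsa-miR-449b-5p, and in the lines that follow (RefSeq, GRCh38.p14) it stands in capitals as bases 2 to 8.
hsa-miR-34a-5p: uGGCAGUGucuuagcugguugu
hsa-miR-449a: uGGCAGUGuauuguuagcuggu
hsa-miR-449b-5p: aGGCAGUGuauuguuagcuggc
Its complement, CACTGCC, was searched on the sense strand alone, as the probes have the letters of the messenger. It stood in 163 of 41000 gene probes (0.398%) and in 2 of the 13 probes of the 10 genes, both of MET. The windows of 30 bases with this match, in capitals, are at chr7:116438320-116438349 for MET probe 1 and chr7:116436218-116436247 for MET probe 3 (hg19, plus strand).
MET probe 1: tcttctaagaattagatacttgtCACTGCC
MET probe 3: aatggttttttCACTGCCtgacctttaaaa
A match describes letters and is no measured site of binding. The other 11 probes do not hold these letters in their 60 bases, which says nothing of the rest of their messengers. None of the gene probes carries the name MIR34A, MIR34AHG, MIR34B or MIR34C, so the level of the microRNA and of its precursors is not analysed here.

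At 42 µM 1 of the 13 probes was called, JAG1 with a lower signal, against 2.65% of all probes tested (1.41% higher and 1.24% lower). The 13 differences were 7 higher and 6 lower with a median of 0.14. Over all probes tested 52.5% were lower, with a median of -0.01. At an unadjusted p under 0.05 the fit gave 3 probes higher (CDK4, MET probe 1 and MET probe 3), against 8.22% of all probes, and 1 lower (JAG1), against 7.16%. The arrays of the groups did not overlap for 2 higher probes (CDK4 and MET probe 1), against 5.82% of all probes, and for 1 lower probe (JAG1), against 6.48%. These shares rest on single arrays and on the model: 0 of all probes were called without DMSO replicate 2 or without 42 µM replicate 2, and 1 with the slide as a block, where JAG1 was not called either.

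MET is the receptor tyrosine kinase for hepatocyte growth factor and drives motility and growth of liver cells. Its 3 probes lie close together, with starts 121 and 2096 bases apart along chromosome 7, and were not set against each other in level. MET probe 1, spotted 10 times on each array, read 12.29, 12.41, 12.43 and 12.40 on DMSO replicates 1 to 4, 12.85, 12.54, 12.74 and 12.28 at 28 µM and 12.77, 12.60, 12.76 and 12.79 at 42 µM. All 4 arrays at 42 µM lay above all DMSO arrays, and at 28 µM 3 lay above them and replicate 4 below. The difference from DMSO was 0.35 ± 0.13 (SE) at 42 µM, with an adjusted p of 0.176 in limma's fit, and 0.22 ± 0.13 at 28 µM, with an adjusted p of 0.545. In the authors' normalized values the second of these was 0.01, and at 42 µM the probe gave 0.15 and 0.14 when the Edwards and the processed signals were scaled by the 75th percentile of each array (adjusted p of 0.819 and 0.756).

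MET probe 3 read 8.54, 8.57, 8.65 and 8.59 under DMSO, 8.31, 9.22, 9.03 and 8.84 at 28 µM and 8.45, 9.36, 9.37 and 9.16 at 42 µM. At each dose 3 of 4 arrays lay above all DMSO arrays and replicate 1, on slide 2, lay below them. Its difference from DMSO was 0.50 ± 0.22 (SE) at the higher dose (adjusted p = 0.282) and 0.26 ± 0.22 at the lower (adjusted p = 0.680). With both replicates 1 left out, a setting added after the values were seen, the probe was called at 42 µM with 0.71 and an adjusted p of 0.0283. MET probe 2, without the seed match, read 8.67, 8.44, 9.25 and 8.96 under DMSO, 8.21, 8.83, 8.84 and 9.13 at 28 µM and 8.28, 9.66, 9.25 and 9.08 at 42 µM. Its groups overlapped at both doses, with differences of -0.08 ± 0.28 (SE) at 28 µM and 0.24 ± 0.28 at 42 µM. The second of these ranged from 0.04 without 42 µM replicate 2 to 0.50 without 42 µM replicate 1, and was 0.11 without DMSO replicate 2 and 0.38 without DMSO replicate 3. The order of the means was DMSO, 28 µM, 42 µM for probes 1 and 3. In the fit as reported neither dose nor the step between doses passed the test for any MET probe.

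AXL, the receptor tyrosine kinase for GAS6, read 8.78, 8.69, 8.91 and 8.55 under DMSO, 7.71, 8.23, 8.88 and 8.43 at 28 µM and 8.04, 8.82, 8.75 and 8.49 at 42 µM. The groups overlapped, and the arrays farthest down were again the replicates 1 of both doses. The means were lowest at 28 µM, with a difference from DMSO of -0.42 ± 0.22 (SE) and an adjusted p of 0.516, which became -0.22 without the replicate 1 at 28 µM. At 42 µM the difference was -0.21 ± 0.22, and -0.05 without the 2 arrays. No neighbours in the order 28 µM, 42 µM, DMSO differed beyond their spread.

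NOTCH1 and NOTCH2 are receptors that, once a ligand on a neighbouring cell binds, are cut and release a fragment that acts on transcription. NOTCH1 was close to background, being well above it on 2 DMSO arrays, 3 arrays at 28 µM and 3 at 42 µM, and read 5.92 to 6.51, 5.77 to 6.57 and 6.04 to 6.55 in these groups. Its differences of 0.09 ± 0.19 (SE) at 28 µM and 0.14 ± 0.19 at 42 µM were smaller than the spread within a group. NOTCH2, well above background on all arrays, read 11.11, 10.80, 10.90 and 10.64 under DMSO, 11.34, 11.11, 11.34 and 10.53 at 28 µM and 11.37, 11.16, 11.16 and 10.77 at 42 µM. At 28 µM replicate 4 was the lowest of all 12 arrays, and at 42 µM replicate 4 lay among the DMSO arrays. NOTCH2 differed from DMSO by 0.22 ± 0.19 at the lower dose (adjusted p = 0.695) and by 0.25 ± 0.19 at the higher (adjusted p = 0.598). With the 75th percentile scaling the second was 0.14 (Edwards) and 0.13 (processed signal), and without 42 µM replicate 1 it was 0.17. For both receptors the order of the means was DMSO, 28 µM, 42 µM with no neighbours apart by more than their spread.

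JAG1 encodes Jagged1, a ligand that sits in the membrane and binds Notch receptors on neighbouring cells. Its probe (chr20:10619061-10619120, hg19, minus strand) read 8.76, 8.90, 8.90 and 8.96 under DMSO, 8.76, 8.41, 8.46 and 8.95 at 28 µM and 8.58, 7.93, 8.37 and 8.16 at 42 µM. Every array at 42 µM lay below every DMSO array, whereas at 28 µM 2 arrays lay below and 2 among them. JAG1 fell at 42 µM by 0.62 on the log2 scale (SE 0.16, 95% interval -0.96 to -0.29), to a fold of 0.65 of DMSO, with an adjusted p of 0.0486. At 28 µM the difference was -0.23 ± 0.16 (SE), with an adjusted p of 0.611, and -0.34 without replicate 4. Between the doses 42 µM was lower than 28 µM by 0.39, a difference that reached an unadjusted p under 0.05, as 1.4% of all probes did in that direction, and had an adjusted p of 0.9998. The order DMSO, 28 µM, 42 µM held for the means, with the ends alone apart by the test.

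Where a treated and a DMSO array shared a slide, the JAG1 differences at 42 µM were -0.39 on slide 2, -0.97 on slide 4 and -0.53 on slide 5. Their sign was fixed in advance, since every array at 42 µM lay below every DMSO array. At 28 µM the pairs gave -0.29 on slide 1, -0.20 on slide 2 and 0.06 on slide 4. The value lay between -0.73 and -0.51 at 42 µM in all 27 alternative fits, and the call was kept in 11 of them. With the slide as a block it was -0.62 with an adjusted p of 0.0972, and without 42 µM replicate 2, the lowest array, -0.51 with 0.172. The gene names whose probes followed JAG1 most closely over the 12 arrays were UBE2N (Pearson r = 0.97), FRYL (0.94) and RACGAP1 (0.94), as a description of arrays that share slides and groups.

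**Figure D1:**
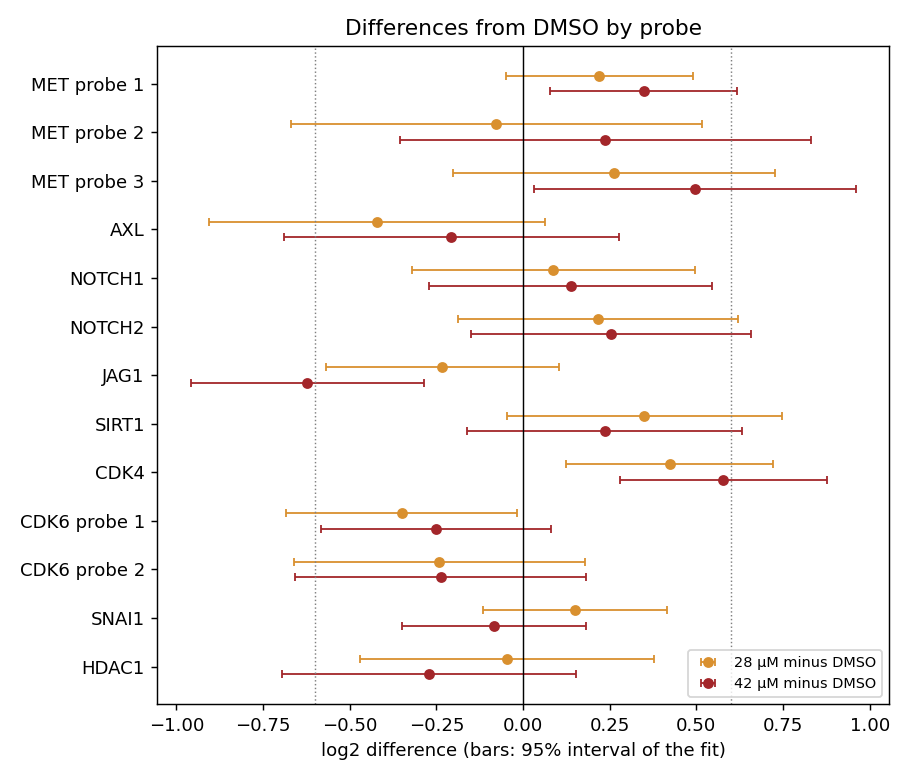
Log2 difference from DMSO of each probe at 28 µM and 42 µM SLMP53-2, with the 95% interval of the fit over 12 arrays and dotted lines at the limit of 0.6. The interval of JAG1 at 42 µM, -0.96 to -0.29, and those of CDK4, MET probe 1 and MET probe 3 at 42 µM do not hold 0.

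The deacetylases gave no call. SIRT1, which removes acetyl groups from p53 and other proteins at the cost of NAD, read 7.44, 7.87, 7.84 and 7.84 under DMSO, 8.10, 8.43, 7.82 and 8.05 at 28 µM and 8.42, 8.14, 7.69 and 7.69 at 42 µM. Both treated groups overlapped with DMSO, and DMSO replicate 1 stood apart below the other 3. SIRT1 differed from DMSO by 0.35 ± 0.18 (SE) at the lower dose (adjusted p = 0.512) and by 0.24 ± 0.18 at the higher one (adjusted p = 0.630), which was 0.13 without DMSO replicate 1 and 0.09 without 42 µM replicate 1. HDAC1, a catalytic subunit of several co-repressor complexes, read 13.67, 13.59, 14.10 and 13.77 under DMSO, 13.35, 13.61, 13.66 and 14.33 at 28 µM and 13.19, 13.55, 13.73 and 13.58 at 42 µM. The values overlapped between all groups, and its differences of -0.05 ± 0.20 and -0.27 ± 0.20 at 28 and 42 µM did not pass the test. The difference at 42 µM was -0.17 without 42 µM replicate 1 and also without DMSO replicate 3, and -0.50 and -0.52 with the 75th percentile scaling of the Edwards and the processed signals. In the order of the means DMSO was lowest for SIRT1 and highest for HDAC1, without neighbours that differed beyond their spread.

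CDK4 and CDK6 are the kinases that D-type cyclins activate to phosphorylate the retinoblastoma protein before S phase. CDK4 (chr12:58142263-58142322, hg19, minus strand) read 12.77, 12.90, 13.16 and 13.18 under DMSO, 13.31, 13.41, 13.46 and 13.53 at 28 µM and 13.41, 13.92, 13.55 and 13.44 at 42 µM. All 8 treated arrays lay above all 4 DMSO arrays, and CDK4 was the single probe of the 13 for which the 28 µM arrays also did not overlap with DMSO, against 2.69% of all probes. At 42 µM CDK4 was higher by 0.58 ± 0.14 (SE, 95% interval 0.28 to 0.88), a fold of 1.49, with an adjusted p of 0.0409, and with a difference under 0.6 it was not called. The adjusted p was below 0.05 in 13 of 27 alternative fits and 0.0842 with the slide as a block. At 28 µM the difference was 0.42 ± 0.14 with an adjusted p of 0.283. The 2 doses differed by 0.15 ± 0.14, within their spread. The order of the means was DMSO, 28 µM, 42 µM. The DMSO arrays lay apart from both doses, and the adjusted p was below 0.05 for the ends alone.

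On shared slides CDK4 was higher in 6 of 6 pairs, by 0.68, 0.13 and 0.37 at 28 µM on slides 1, 2 and 4 and by 0.23, 0.77 and 0.65 at 42 µM on slides 2, 4 and 5, where slides 2 and 4 each lend 1 DMSO array to both doses. The 42 µM replicate 2 held the highest CDK4 value and the lowest JAG1 value of all arrays. The size at 42 µM hung on the scaling of the arrays. With the 75th percentile of each array in place of the quantiles it was 0.34 with an adjusted p of 0.283, and with the processed signal scaled in that way 0.32 with 0.276. The sign was the same in all 27 alternative fits, and CDK4 was called in 1 of them, without 42 µM replicate 4, at 0.63.

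CDK6 probe 1 read 10.13, 10.47, 10.29 and 10.62 under DMSO, 10.32, 9.76, 10.06 and 9.98 at 28 µM and 10.45, 9.96, 10.00 and 10.10 at 42 µM. Most treated arrays were below the DMSO arrays, and replicate 1 of each dose lay among them. The difference was -0.35 ± 0.15 (SE) at 28 µM, the 1 lower probe of the 13 at an unadjusted p under 0.05 (5.58% of all probes; the 1 higher probe was CDK4, against 5.46%), with an adjusted p of 0.428, and it was -0.25 ± 0.15 at 42 µM. CDK6 probe 2, whose 60 bases the file places over 48399 bases of the genome and which therefore joins separate stretches of it, read 7.57, 7.50, 7.87 and 7.87 under DMSO, 6.84, 7.46, 7.59 and 7.94 at 28 µM and 7.26, 7.48, 7.51 and 7.61 at 42 µM. Its differences were -0.24 ± 0.19 at both doses with overlapping arrays, and at 28 µM the value was -0.04 without replicate 1. Both probes of CDK6 were thus on the lower side at both doses with no call, while CDK4 was on the higher side.

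SNAI1, the zinc finger factor Snail that represses E-cadherin, read 9.91, 9.83, 9.78 and 9.54 under DMSO, 9.73, 9.93, 10.06 and 9.93 at 28 µM and 9.49, 9.72, 9.65 and 9.87 at 42 µM. The groups overlapped throughout, and the differences were 0.15 ± 0.12 (SE) at 28 µM and -0.08 ± 0.12 at 42 µM. It was the gene with the smallest difference at 42 µM, with a 95% interval of -0.35 to 0.18 that leaves out a change of 0.6 either way.

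At 28 µM 0 of the 13 probes were called, as were 0% of all 33467 probes. The differences were 7 higher and 6 lower, against 52.5% of all probes lower, with a median of 0.09 (all probes -0.01). The count for the 13 probes remained 0 without replicate 4, a setting in which 717 of 33467 probes were called (436 higher and 281 lower). With so small a share of the array called, 0 of 13 says little about these genes. Between 42 and 28 µM 0 of 13 and 0% of all probes were called. At an unadjusted p under 0.05 in limma's fit 0 of the 13 were higher, against 1.05% of all probes. By the same limit 1, JAG1, was lower, against 1.4%. The array 28 µM replicate 1 was the lowest of the 12 arrays for 5 of the 13 probes (AXL, NOTCH1, CDK6 probe 2 and MET probes 2 and 3). How often it was the lowest over all probes was not counted. This array had the largest share of spots well above background, 85.0%. Its part in the results other than in the values without it was not tested.

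**Figure D2:**
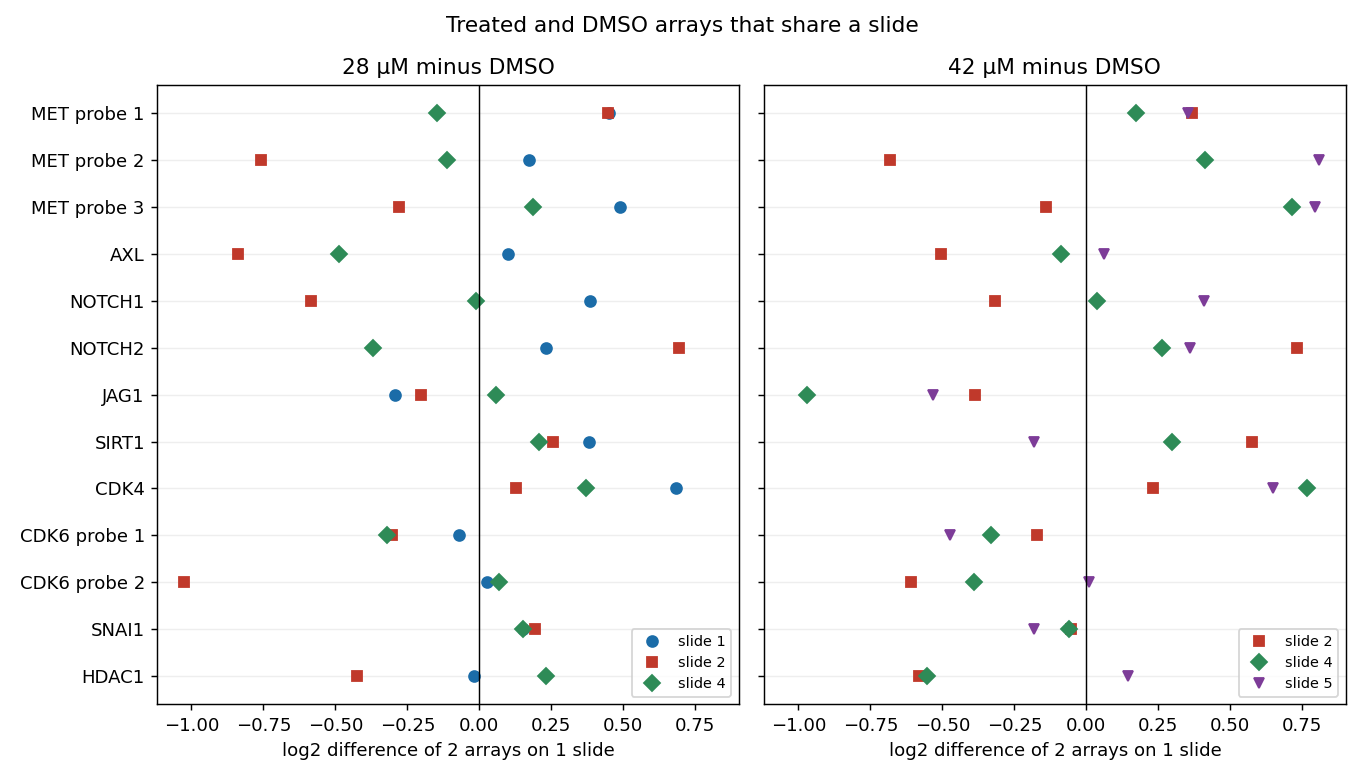
Log2 difference between a treated array and the DMSO array on the same slide for each probe, at 28 µM (left, slides 1, 2 and 4) and 42 µM (right, slides 2, 4 and 5). The pairs of JAG1 at 42 µM lie left of 0 and those of CDK4 at both doses right of 0, as they must where the groups do not overlap. At both doses AXL, NOTCH1, CDK4, HDAC1, MET probe 2, MET probe 3 and CDK6 probe 2 have their lowest value on slide 2. Both doses are set against the same DMSO array on that slide, so the 2 panels are not independent there.

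Around the 10 genes, 1 probe per gene was read for lists of related genes, with 1.57% of all genes called higher and 1.43% called lower at 42 µM in that reading. Other published targets of miR-34a numbered 38 on the array, of which 36 were tested, and 3 rose, 2 fell and 31 did not pass. The differences were 11 above and 25 below 0, with a median of -0.05 (all genes -0.02). Of all probes tested, not reduced to 1 per gene, 52.5% were below 0. The genes that rose were IL6R, the receptor subunit for interleukin 6, by 1.20 ± 0.24 (SE), MYC, a growth-promoting transcription factor, by 1.20 ± 0.24 and ACSL1, which activates fatty acids, by 0.95 ± 0.23. Those that fell were MYCN, the paralogue of MYC, with a difference of -1.54 ± 0.19 and LDHA, a subunit of lactate dehydrogenase, with -1.28 ± 0.29. Of 12 genes of microRNA processing and of the Argonaute proteins 0 were called, with a median of 0.12.

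For the receptors, 16 ligands, relatives and adaptors of MET and AXL were tested and 2 rose. They were HPN, the membrane protease hepsin, which can activate the precursor of hepatocyte growth factor, with a mean of 8.71 ± 0.03 (SD, n = 4) under DMSO and 10.0 ± 0.38 at 42 µM, and MST1, the ligand of the MET relative MST1R, with 11.1 ± 0.23 and 12.4 ± 0.49. MST1 has near-identical copies in the genome, and whether its probe also reads them was not tested. Of 20 other Notch ligands, receptors and processing genes LFNG, a glycosyltransferase that modifies Notch receptors, fell from 9.53 ± 0.10 to 8.47 ± 0.36, and of 10 genes of the Notch nuclear complex and its targets HES4, a repressor of the HES family, rose from 9.96 ± 0.28 to 11.2 ± 0.58. Besides JAG1, LFNG and HES4, 0 of these Notch genes passed the test.

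The genes next to CDK4 and CDK6 were 17 cyclins, inhibitors and members of the RB family together with CDK2 and E2F1. At 42 µM 14 of 17 differences were below 0, against 52.5% of all probes tested, not reduced to 1 per gene. The median was -0.26 (all genes -0.02). In this list 0 genes rose and 3 fell. They were CDKN2C, an INK4 inhibitor that binds CDK4 and CDK6, with a mean of 10.67 ± 0.17 (SD, n = 4) under DMSO and 9.51 ± 0.32 at 42 µM, CDKN1C, an inhibitor of the CIP/KIP group, and CCNE1, cyclin E1. Among 11 sirtuins and NAD genes NAMPT, which makes the precursor of NAD that sirtuins use, rose by 0.83 ± 0.19 (SE). Of 12 Snail, ZEB and TWIST factors and junction genes and of 21 HDACs and complex partners 0 were called, with medians of 0.20 and -0.07. Some genes stand in more than 1 list. Over the 27 alternative fits the 13 genes named from the lists as called kept their sign, and each was called in 12 (CDKN1C) to 24 (HPN and MYCN) of them.

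**Figure D3:**
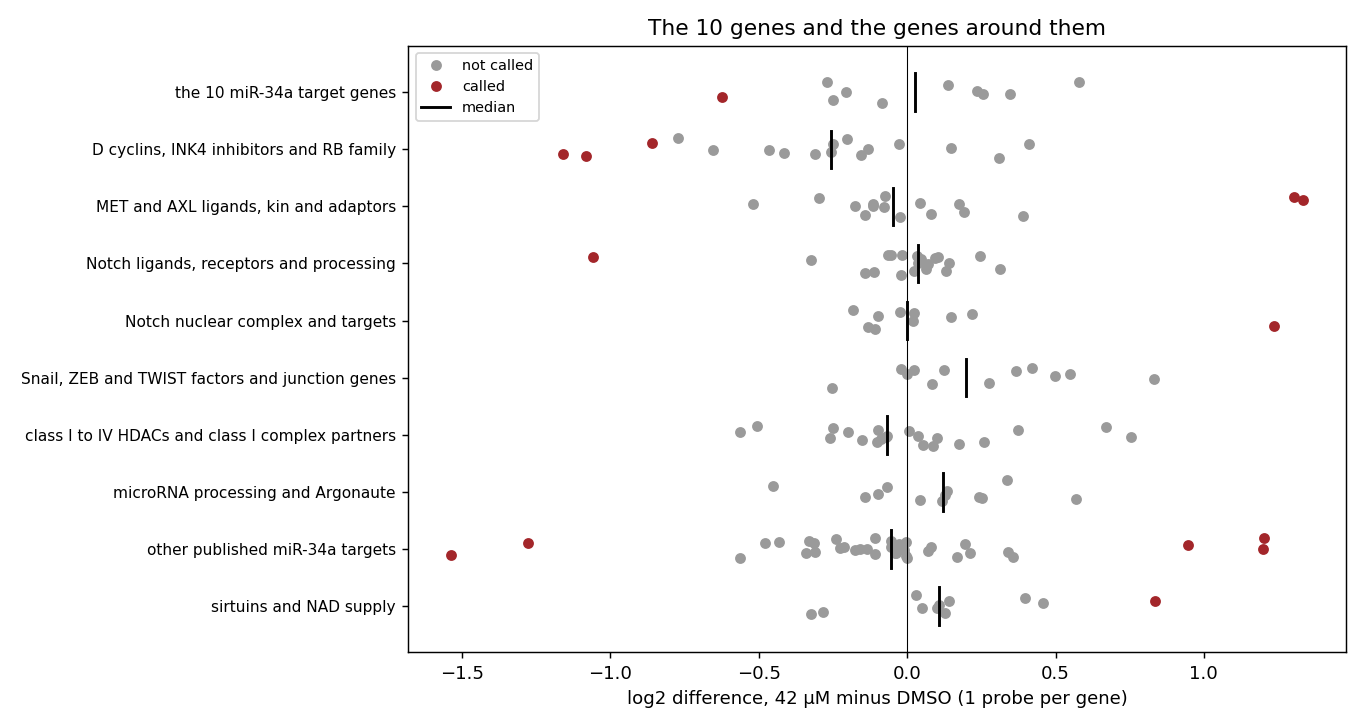
Log2 difference between 42 µM SLMP53-2 and DMSO for every tested gene of the 10 lists (1 probe per gene), with called genes in red and the median as a black bar. The 10 miR-34a target genes lie between -0.62 (JAG1) and 0.58 (CDK4), and the 36 other published targets reach from -1.54 (MYCN) to 1.20 (IL6R).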

How the data were processed

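RNA of HuH-7 cells was hybridised to 12 Agilent arrays, 4 per group. The authors deposited the scanner output of Agilent Feature Extraction (10.7.3.1 per the file headers), with a mean and a background intensity for each spot, and a table of their own normalized log2 values, used as an alternative. Probe positions are those of hg19 per the file headers, with no annotation of exons or untranslated regions used here. Arrays have no read depth, and their number limits the precision.

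Outlier spots and controls were left out, the Edwards background correction and quantile normalization named in the authors' methods were applied, and the spots of a probe were averaged on the log2 scale. The filter kept probes well above background on 2 or more of the 4 arrays of some condition. limma 3.58.1 in R 4.3.3 was fitted to all 12 arrays (lmFit and eBayes, two-sided, Benjamini-Hochberg adjustment over 33467 probes). DEGs followed the limits of the study's results, and the methods' 2-fold limit was an alternative. The fit was tested on simulated data.

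The 10 genes, the lists and the tests were chosen with earlier results of these data known. Named are all 10 genes with every probe, of each list the called gene of largest rise and of largest fall at 42 µM (up to 3 each way for the other miR-34a targets), and the 3 closest patterns to a called probe. MST1, CDKN1C and CCNE1 were named after their values were seen. For lists, the brightest probe stood for a gene, and accessions were matched to RefSeq for 28078 of 41000 probes. Alternatives were other background corrections, scalings, filters, blocks, weights and limits, the authors' values, and leaving out each array. Same-numbered arrays deviated from their group means with correlations that were not all above 0.1, so numbers were not taken as pairs. Figures were drawn with matplotlib 3.10.9 in Python 3.11.15.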

Additional observations from a re-analysis of the deposited data

Results flagged for a closer look

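In each of 39 sets of 4 arrays (13 probes in 3 groups) the array farthest from the others was checked by its gap to its neighbour as a share of the range, a rule by which chance marks about 1 set in 20. There were 2 such arrays. SIRT1 read 7.44 on DMSO replicate 1, below 7.84 to 7.87 on the other DMSO arrays. MET probe 1 read 12.6 on 42 µM replicate 2, below 12.76 to 12.79 on the other arrays at that dose and still above all DMSO arrays.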

How the results depend on the processing

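At 28 µM and between the doses the count of called probes among the 13 was 0 in all 30 alternatives. At 42 µM, where it was 1, it was 0 with normexp, with the processed signal under either scaling, with each array's 75th percentile in place of quantiles, with no filter, with the slide block, with the intensity trend and with a log2 limit of 1, each time through the loss of JAG1. It was 2 with no log2 limit (JAG1 and CDK4) and 2 without replicate 1 of both doses on slide 2, an alternative added after the values were seen (JAG1 and MET probe 3). Leaving out 1 array gave counts from 0 to 1, and JAG1 was called in 3 of these 12 fits. The replicate block gave 1 call at 42 µM, JAG1 with an adjusted p of 0.0381, and changed no call among the 13 probes. The numbers were not taken as pairs, since 5 of 12 arrays correlated best with one of their own number. Of the 39 differences of the 13 probes 7 turned sign in some alternative, each by less than 1 replicate SD. Over all probes at 42 µM the calls split into 473 higher and 415 lower, and into 319 and 493 with that percentile. With the slide block 1 probe was called. Leaving out 1 array gave 0 to 1225 calls in limma, with 0 without DMSO replicate 2 or 42 µM replicate 2 (4228 and 4055 probes at an unadjusted p under 0.05), 259 without DMSO replicate 1, 449 without DMSO replicate 3, 320 without DMSO replicate 4, 500 without 42 µM replicate 1 and 553 without 42 µM replicate 3. The cause of the lost calls was not tested. The limits on JAG1 are that it rests on 1 probe and 4 arrays per group and lies at the edge of both thresholds, and NOTCH1, near background, allows no reading of a small change.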
